A study of Mus musculus with 14 samples.

Results

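The genes described are 53 mouse genes of the cell cycle and of DNA replication, followed through the ChIP-seq peak lists of C2C12 myotube cultures. A peak belonged to a gene when the authors' annotation named that gene as the nearest one, and the peaks of all lists that named a member were collected. The lists held 745 such peaks among 517058, and 52 of the 53 members had at least 1. C2C12 is a mouse myoblast line that leaves the cell cycle and fuses into myotubes once serum is lowered. Cells were taken on day 2 of differentiation, and the study asked how chromatin binding changes when Myolinc, a long noncoding RNA, is knocked down. The control groups carry no transfection entry in the labels, which do not say whether a control siRNA was used. The knockdown groups, called siMyolinc, had received siRNA against Myolinc at 10 nM. All groups are cultures of the same cell line, and the labels do not say whether libraries came from separate cultures.

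Of 14 samples, 10 had a peak list called against IgG, and the 4 input and IgG samples were not analysed here. The antibodies recognised TDP-43, a DNA- and RNA-binding protein, MyoD and Myogenin, which switch on muscle genes, and the elongating form of RNA polymerase II, which carries phosphate on serine 2 of its tail repeats (Pol II S2P). There were 3 control libraries for TDP-43 and 1 library for each other combination of antibody and condition. The lists held between 8162 and 116064 peaks. ChIP-seq measures no transcript, so neither the knockdown nor the RNA of any member was checked. Peak height is given in tags, the sequenced fragments counted in a peak, which were recovered from the authors' scores. The number of reads per library is not given in the files. A tag was worth 7.17, 9.20 and 10.4 score units in TDP-43 control replicates 1 to 3, 3.07 in TDP-43 siMyolinc, 6.87 in Pol II S2P control and 2.65 in Pol II S2P siMyolinc. It was worth 2.94 to 3.29 in the MyoD and Myogenin lists. If all scores were scaled to 1 common total, the worth of a tag is larger where fewer tags were sequenced. In that case knockdown and depth cannot be told apart for TDP-43 and Pol II S2P. The siMyolinc lists of MyoD and Myogenin stood apart in another way, with a median peak width of 75 bp against 217 to 249 bp in the other 8 lists. Promoters of skeletal muscle markers carried a peak for 0 to 4 of 12 genes per list, against 0 to 1 of 7 for hepatocyte, 0 to 1 of 6 for adipocyte and 0 to 2 of 6 for osteoblast markers. The highest share was 33.3% for both muscle and osteoblast markers, and 1.55% to 11.2% of protein-coding genes had a promoter peak per list. These small counts were not tested.

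Cells enter S phase when cyclin E and Cdk2 release E2F factors from the retinoblastoma protein, and E2F factors then switch on the genes of replication. The MCM ring is loaded at origins, is activated with Cdc45 and the GINS complex, and unwinds DNA ahead of the polymerases. Genes of mitosis are switched on later by B-Myb, FoxM1 and the MuvB complex, through CHR elements near the start that often stand beside CCAAT boxes, and are kept off in resting cells by the DREAM complex. In differentiating muscle cells these programmes are shut down as MyoD and Myogenin turn on muscle genes.

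At promoters, the members carried few peaks, and most of those that occurred were found in a single list. The authors' promoter class was given to 22 member peaks at 17 members, and 36 members had none. Each of the 22 was the promoter of the member itself, with the peak centre between -991 and 98 bp from the named start, and none lay in an annotated repeat. These distances describe where the authors gave the class. A further 18 member peaks within 1000 bp of a start were not of this class, and all 18 lay at or downstream of the start. A promoter peak was seen in 1 list for 13 of the 17 members and in 2 lists for 4 (Brip1, Nbn, Gins2 and Kif11). No member had a promoter peak in both conditions of the same antibody. Per list, 1.55% to 11.2% of protein-coding genes had a promoter peak. How many of them had one in 2 lists or in both conditions was not counted, so these numbers describe the members alone. With the MyoD and Myogenin siMyolinc lists left out, a comparison added after the data were seen, 10 members with a promoter peak remained.

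The promoters of 5 members illustrate where the peaks fell. They are those of the 7 members with a reference sequence and a promoter peak reaching into the 250 bases before the start in which the peak covered more than 100 of these bases. The sequences are from RefSeq, build GRCm38.p6, each written 5′ to 3′ along the gene and ending just before its start, with the bases covered by a peak in capitals. They are Brip1 at chr11:86201194-86201443 on the minus strand, Pola1 at chrX:93632156-93632405 on the minus strand, Cenpa at chr5:30666636-30666885 on the plus strand, Kif23 at chr9:61946800-61947049 on the minus strand and Kif11 at chr19:37376132-37376381 on the plus strand.
Brip1: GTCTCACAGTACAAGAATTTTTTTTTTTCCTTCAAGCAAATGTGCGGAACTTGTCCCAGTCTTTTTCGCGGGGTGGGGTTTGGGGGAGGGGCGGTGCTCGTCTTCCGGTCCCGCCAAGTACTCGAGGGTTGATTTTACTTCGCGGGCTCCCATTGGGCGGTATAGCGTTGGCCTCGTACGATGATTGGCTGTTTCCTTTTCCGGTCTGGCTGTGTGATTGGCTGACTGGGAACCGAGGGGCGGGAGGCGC
Pola1: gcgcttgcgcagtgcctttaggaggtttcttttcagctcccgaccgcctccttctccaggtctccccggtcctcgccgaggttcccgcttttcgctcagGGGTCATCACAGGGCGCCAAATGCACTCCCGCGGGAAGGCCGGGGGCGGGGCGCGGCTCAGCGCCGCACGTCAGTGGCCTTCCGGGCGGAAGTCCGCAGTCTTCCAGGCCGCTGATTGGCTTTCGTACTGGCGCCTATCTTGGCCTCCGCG
Cenpa: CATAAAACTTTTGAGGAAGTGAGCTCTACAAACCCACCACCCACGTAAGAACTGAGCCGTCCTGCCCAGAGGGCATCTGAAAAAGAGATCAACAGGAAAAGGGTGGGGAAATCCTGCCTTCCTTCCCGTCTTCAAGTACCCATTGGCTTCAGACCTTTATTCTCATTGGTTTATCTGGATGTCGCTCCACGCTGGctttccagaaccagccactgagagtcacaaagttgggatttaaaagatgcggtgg
Kif23: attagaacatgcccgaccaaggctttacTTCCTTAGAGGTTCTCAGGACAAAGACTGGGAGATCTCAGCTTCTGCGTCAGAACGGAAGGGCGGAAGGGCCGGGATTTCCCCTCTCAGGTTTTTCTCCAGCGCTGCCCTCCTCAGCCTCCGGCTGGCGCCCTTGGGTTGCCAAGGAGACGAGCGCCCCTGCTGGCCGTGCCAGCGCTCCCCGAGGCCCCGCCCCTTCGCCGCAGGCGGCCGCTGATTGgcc
Kif11: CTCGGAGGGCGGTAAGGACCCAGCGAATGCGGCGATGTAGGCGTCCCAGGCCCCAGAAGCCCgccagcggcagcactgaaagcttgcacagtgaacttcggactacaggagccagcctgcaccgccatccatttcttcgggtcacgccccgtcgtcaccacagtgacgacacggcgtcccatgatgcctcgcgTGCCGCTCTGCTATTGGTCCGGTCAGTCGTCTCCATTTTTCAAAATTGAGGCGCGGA
The peaks covered 250 of the 250 bases for Brip1 (TDP-43 and Pol II S2P, both siMyolinc), 151 for Pola1 (TDP-43 control replicate 1) and 195 for Cenpa (Pol II S2P siMyolinc). They covered 219 for Kif23 (Pol II S2P siMyolinc) and 119 for Kif11, where 2 separate MyoD siMyolinc peaks lay at the ends of the window.

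Motifs were searched on both strands of such 250-base windows, which were at hand for 43 members and for 27025 genes in all. The CCAAT box (CCAAT) occurred in 36 of the 43 members, 83.7%, against 34.5% of all promoters. The CHR element (TTTGAA) occurred in 23.3% against 16.3%. E2F-type sites occurred in 9.30% against 0.437% for TTTGGCGC and in 11.6% against 0.929% for TTTCCCGC. The E-box (CANNTG), the core bound by MyoD and Myogenin, was present in 48.8% of the members and 66.0% of all promoters, and its CAGCTG form in 9.30% and 12.8%. TGTGTG, a TG repeat of the kind TDP-43 binds in RNA and single-stranded DNA, was present in 9.30% and 17.7%. The CAGCTG hits are a subset of the CANNTG hits, and the shares describe letters only. Motif positions are those of the motif's most upstream base, counted back from the start. The covered part of Brip1 held CCAAT at -99, -67 and -34 bp, TGTGTG at -40 bp and an E-box at -214 bp. The covered part of Pola1 held TTTGGCGC at -138 bp, an E-box at -134 bp and CCAAT at -37 bp. Cenpa had an E-box at -177 bp and CCAAT at -109 and -86 bp inside its peak. Kif11 had CCAAT at -45 bp and TTTGAA at -19 bp inside its proximal MyoD peak, and Kif23 had 1 CCAAT at -7 bp, which was not wholly inside its peak.

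**Figure D1:**
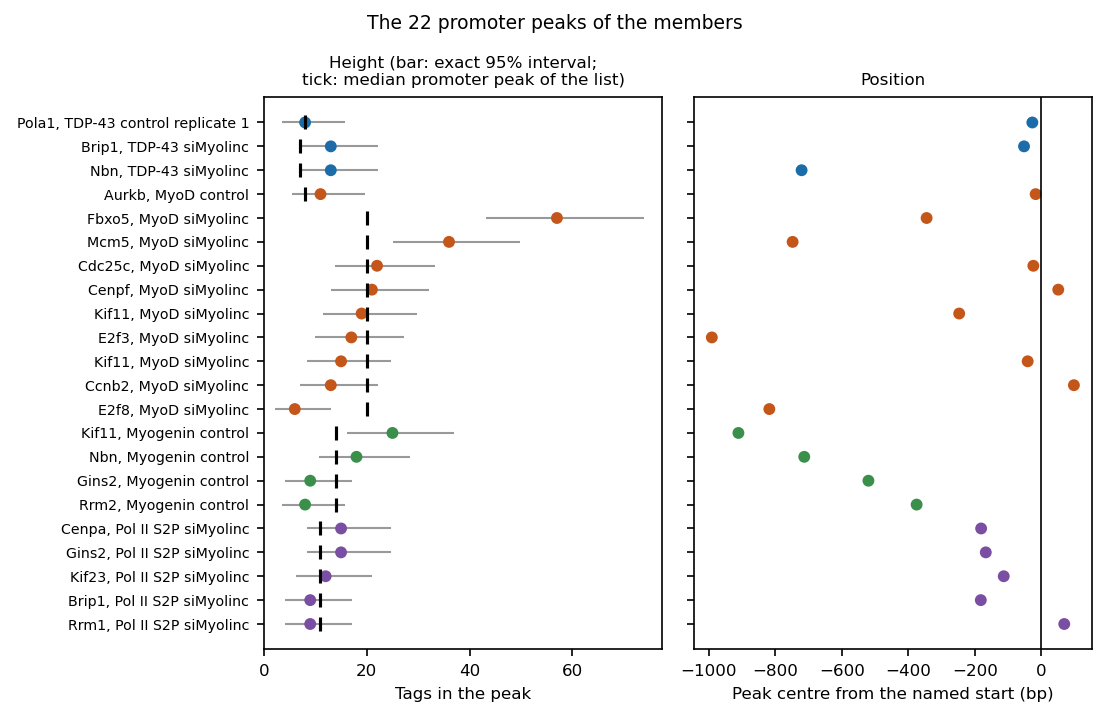
Promoter peaks of the members, ordered by list: the left panel gives tags per peak with the exact 95% Poisson interval and the median promoter peak of the same list as a tick, and the right panel the distance of the peak centre from the named start in bp. Fbxo5 and Mcm5 in MyoD siMyolinc, at 57 and 36 tags, have intervals that lie above the tick of 20 tags. The interval of Kif11 in Myogenin control, at 25 tags, lies above its tick of 14. That of E2f8 in MyoD siMyolinc, at 6 tags, lies below its tick of 20, and the other intervals reach the median of their list.

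The promoter peaks were spread over every role. Among cyclins and phosphatases, Ccnb2, which activates Cdk1 at mitotic entry, had a MyoD siMyolinc peak of 13 tags at 98 bp, and Cdc25c, which removes inhibitory phosphates from Cdk1, had one of 22 tags at -24 bp in the same list. Among transcription factors, E2f3, an activator E2F, and E2f8, a repressor E2F, had MyoD siMyolinc peaks of 17 tags at -991 bp and 6 tags at -818 bp. Of the replication machinery, the MCM subunit gene Mcm5 had a MyoD siMyolinc peak of 36 tags at -748 bp. Gins2, a GINS subunit, had a Myogenin control peak of 9 tags at -520 bp and a Pol II S2P siMyolinc peak of 15 tags at -167 bp. The Gins2 peaks also lay 418 and 65 bp from the start of a neighbouring gene, Gm10614, so the start they belong to cannot be told apart. Pola1, the catalytic subunit of the polymerase that makes primers, had a peak of 8 tags at -27 bp in TDP-43 control replicate 1, equal to the median promoter peak of that list. Of the nucleotide supply genes, Rrm1 and Rrm2 encode the subunits of ribonucleotide reductase. Rrm1 had a Pol II S2P siMyolinc peak of 9 tags at 69 bp and Rrm2 a Myogenin control peak of 8 tags at -375 bp. Tyms, which encodes thymidylate synthase, had no peak of the promoter class, but had a peak of another class within 1000 bp, at or downstream of its start.

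Among the mitotic and repair genes, Fbxo5, an inhibitor of the anaphase-promoting complex, had a MyoD siMyolinc peak of 57 tags (exact Poisson interval 43.2 to 73.9) at chr10:5805773-5805847, -345 bp from its start. That peak ranked 9 of the 2944 promoter peaks in its list, whose median was 20 tags. No other list had a promoter peak at Fbxo5. Aurkb, a kinase of the chromosomal passenger complex, had the one member promoter peak of the MyoD control list, with 11 tags at -17 bp and rank 155 of 1028. Cenpa, the centromeric histone variant, and Kif23, a kinesin of the cleavage furrow, had Pol II S2P siMyolinc peaks of 15 and 12 tags, and Cenpf, a kinetochore protein, a MyoD siMyolinc peak of 21 tags. Kif11, the kinesin that separates the spindle poles, had MyoD siMyolinc peaks of 19 and 15 tags and a Myogenin control peak of 25 tags at -911 bp, which did not overlap them. Brip1, a helicase that works with Brca1, and Nbn, a subunit of the double-strand break sensor, had TDP-43 siMyolinc peaks of 13 tags each. Both ranked 15 of the 632 promoter peaks of that list, with ties sharing a rank, and the interval of each, 6.92 to 22.2, reached down to the list's median of 7. The Brip1 peak overlapped a Pol II S2P siMyolinc peak of 9 tags. The site that both peaks form also overlapped the reference span of another gene, Brip1os, so the gene they belong to cannot be told apart. The Nbn peak, at chr4:15957138-15957354 and -721 bp from the start, overlapped a Myogenin control peak of 18 tags. None of the 3 TDP-43 control lists had a promoter peak at Brip1 or Nbn.

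Set against all 21900 protein-coding genes, members with a promoter peak showed no detectable difference in frequency in any of the 10 lists, with wide intervals. TDP-43 promoter peaks were found at 1, 0 and 0 of 53 members in control replicates 1 to 3, and 5.09%, 2.12% and 1.65% of protein-coding genes had one. In TDP-43 siMyolinc they were found at 2 members, or 3.77% (exact binomial interval 0.460 to 13.0), against 2.49% of protein-coding genes. For MyoD the count was 1 member in control, against a background of 4.01%, and 8 members in siMyolinc, or 15.1% (6.75 to 27.6) against 11.2%. For Myogenin it was 4 in control, or 7.55% (2.09 to 18.2) against 6.46%, and 0 in siMyolinc against 2.46%. For Pol II S2P it was 0 in control against 1.55%, and 5 in siMyolinc, or 9.43% (3.13 to 20.7) against 8.89%. The exact interval for 0 of 53 reaches 6.72%, so in the 4 lists without a member promoter peak no difference from the background was detectable. In each list the exact interval of the members contained the background. Another list of 72 cell cycle genes, such as origin recognition, checkpoint and Rb family genes, had promoter peaks at 0 to 9 genes per list. That list reached 9 of 72 in MyoD siMyolinc and in Pol II S2P siMyolinc, 12.5% each (5.88 to 22.4).

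**Figure D2:**
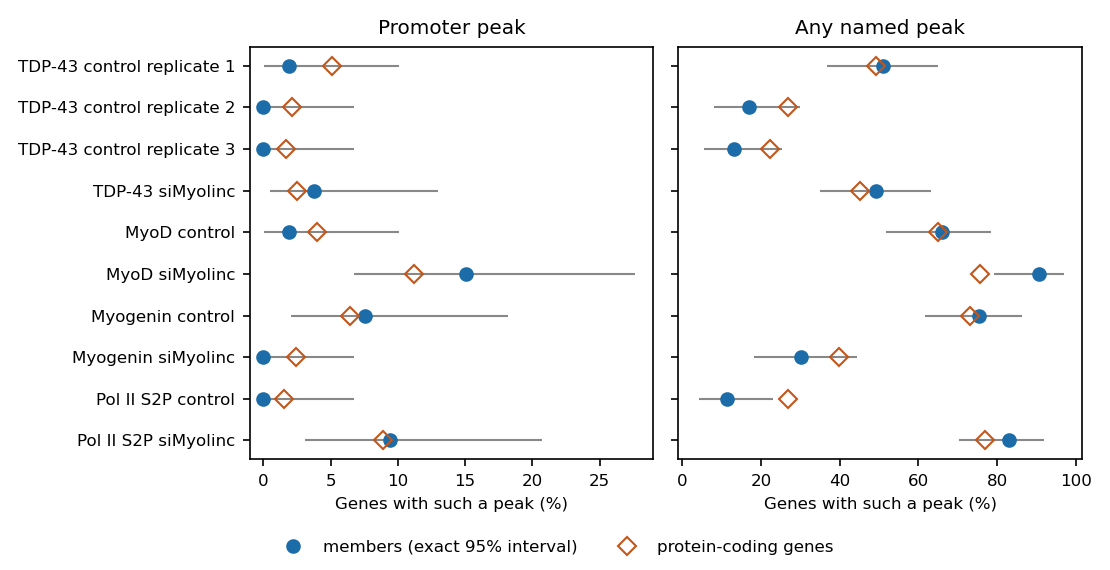
Percent of genes with a promoter peak (left) and with any named peak (right) in each list, with filled circles for the 53 members, their exact 95% binomial intervals as bars, and open diamonds for 21900 protein-coding genes. In the left panel every bar crosses its diamond, and in the right panel the MyoD siMyolinc and Pol II S2P control bars do not.

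Between control and knockdown, the number of members with a promoter peak moved in the same direction as the number of all promoter peaks for MyoD, Myogenin and Pol II S2P. For TDP-43 the mean was 0.333 ± 0.577 members (SD, n = 3) in control and 2 in siMyolinc, and the exact two-sided permutation test gave p = 0.25, the smallest value that 3 against 1 library allows. For the other antibodies there is 1 library per condition and no test. MyoD went from 1 to 8 members while all its promoter peaks went from 1028 to 2944, Myogenin from 4 to 0 with 1656 and 634, and Pol II S2P from 0 to 5 with 403 and 2316. When each list was cut to its 8162 best-scoring peaks, the length of the shortest, MyoD gave 0 and 1 members, Myogenin 0 and 0, Pol II S2P 0 and 0, and TDP-43 a mean of 0 and 2. The TDP-43 siMyolinc peaks at Brip1 and Nbn were thus within the best of their list, with 303 as the rank of each.

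As a share of all peaks in a list, TDP-43 peaks named for members made up 0.148%, 0.104% and 0.0980% of the 3 control lists, a mean of 0.117% ± 0.0274 (SD, n = 3), and 0.184% of the siMyolinc list (exact binomial interval 0.135 to 0.246). The siMyolinc value lay above all 3 control values, and the exact two-sided permutation test again gave p = 0.25. In counts, these were 44, 11 and 8 peaks in control and 46 in siMyolinc. For MyoD the share was 0.157% in control (113 peaks) and 0.162% in siMyolinc (178 peaks), a difference of 0.00530 percentage points (95% interval -0.0334 to 0.0421). For Myogenin it was 0.130% (149 peaks) and 0.137% (28 peaks), a difference of 0.00733 points (-0.0405 to 0.0712). For Pol II S2P it was 0.0653% (7 peaks) and 0.139% (161 peaks), a difference of 0.0734 points (0.00116 to 0.114). These intervals cover counting error only, and with 1 library per group they say nothing on variation between cultures. The Pol II S2P control share rests on 7 peaks, of which 71.4% carried a repeat annotation, against 35.9% of all peaks in that list. For the siMyolinc peaks these values were 36.0% and 38.2%. The difference was 0.115 points without repeats (0.0291% and 0.144%) and 0.0123 points in lists of equal length.

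**Figure D3:**
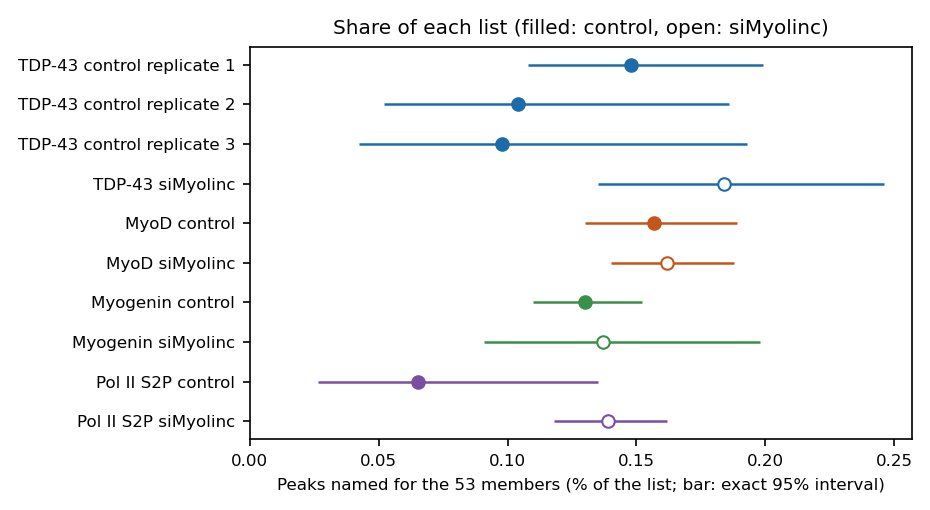
Peaks named for the 53 members as a percent of each list, with exact 95% binomial intervals as bars, filled circles for control and open circles for siMyolinc. The shares run from 0.0653% in Pol II S2P control to 0.184% in TDP-43 siMyolinc, and most bars overlap.

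Counting any named peak, wherever it lay, 27, 9 and 7 of 53 members had a TDP-43 peak in control replicates 1 to 3, where 49.3%, 26.8% and 22.3% of protein-coding genes had one. In TDP-43 siMyolinc 26 members had one, or 49.1%, against 45.1%. For MyoD the numbers were 35 members in control, or 66.0% against 64.9%, and 48 in siMyolinc, or 90.6% (79.3 to 96.9) against 75.6%. For Myogenin they were 40 in control, or 75.5% against 73.2%, and 16 in siMyolinc, or 30.2% against 39.7%. For Pol II S2P they were 6 in control, or 11.3% (4.27 to 23.0) against 26.8%, and 44 in siMyolinc, or 83.0% against 77.0%. Only in MyoD siMyolinc and in Pol II S2P control did the members' interval leave out the background, which describes genes of a single library and was not tested. The other 72 cell cycle genes stood at 86.1% (75.9 to 93.1) in MyoD siMyolinc, an interval that also lay above the background of 75.6%. In Pol II S2P control they stood at 19.4% (11.1 to 30.5), an interval that contained the background. Their interval lay above the background as well in MyoD control (66.4 to 86.7), Myogenin control (81.0 to 96.0) and Pol II S2P siMyolinc (79.3 to 95.1). It lay below the background in Myogenin siMyolinc (16.7 to 38.1). The median gene length was 17.3 kb for the members, 27.5 kb for the other 72 cell cycle genes and 17.1 kb for protein-coding genes.

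**Figure D4:**
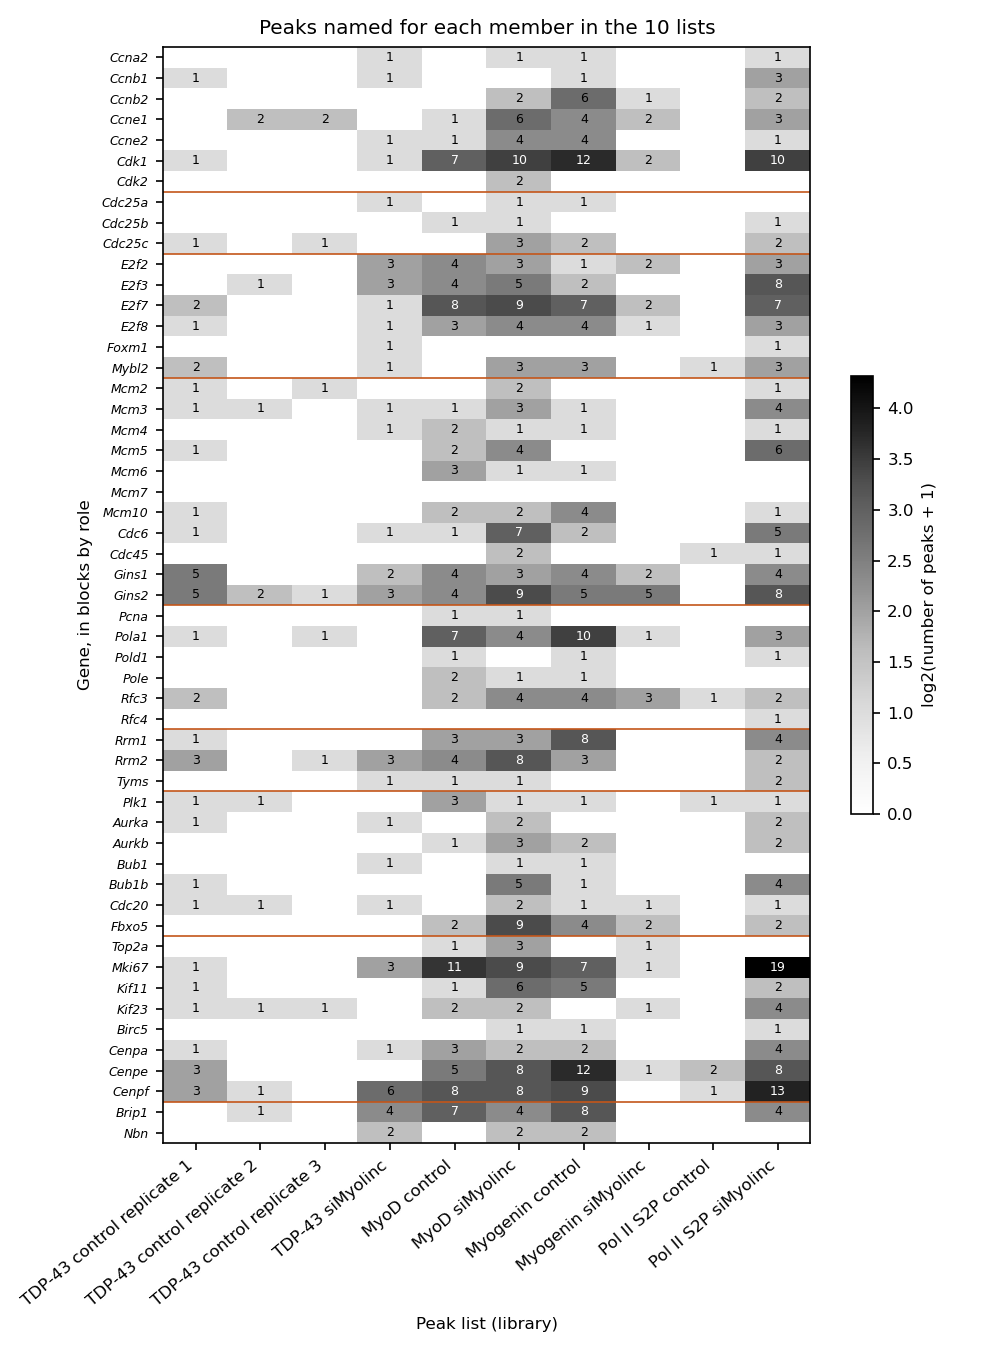
Number of peaks named for each member (rows, in blocks by role from cyclins at the top to DNA repair at the bottom) in each list (columns), printed in the cell and shaded as log2(number + 1), with blank cells for no peak. Mki67 reaches 19 peaks in Pol II S2P siMyolinc, the Pol II S2P control column holds 7 peaks in all, and the row of Mcm7 is empty.

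Peaks per member ranged from 0 to 51 with a median of 11. Among cyclins and kinases, Cdk1, the mitotic kinase, had 43 peaks and Cdk2, the S phase kinase, had 2, both in MyoD siMyolinc. Of the transcription factors, E2f7, a repressor E2F, had 36 and Foxm1, the activator of G2 genes, had 2. Of the helicase genes, Gins2 had 42 and Gins1 24, while the MCM genes Mcm2 to Mcm6 had 5 to 13 and Mcm7 had none in any list. In the polymerase and clamp group, Pola1 had 27, and Pcna, the sliding clamp, 2. The kinetochore and spindle group held 187 peaks, 25.1% of all member peaks, with 51 at Mki67, the proliferation antigen, 49 at Cenpf and 39 at Cenpe, a kinetochore motor. The 5 leading members, Mki67, Cenpf, Cdk1, Gins2 and Cenpe, held 224 peaks or 30.1% of the total. Since a peak is named for the nearest start, a gene beside a long gene-free stretch can collect more of them. Across the 53 members, Spearman's rho between gene length and number of peaks was 0.32, a description of genes that share the same libraries.

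In every list the member peaks had a shorter median distance to the named start than the list as a whole, although few lay close to it. The median was 8.92 to 22.6 kb for the members and 19.5 to 54.3 kb for all peaks, for example 13.0 against 37.6 kb in MyoD siMyolinc. This is a description of the nearest-gene naming and was not tested. Over all lists the members' median was 16.5 kb, with 65.2% of the 745 peaks beyond 10 kb and 5.37% within 1 kb. By the authors' classes 44.3% were intergenic, 37.3% intronic, 8.59% exonic and 2.95% at promoters, against 50.3%, 39.0%, 5.29% and 2.29% of all peaks. By the transcript behind the class, 277 peaks (37.2%) lay in the member itself and 138 (18.5%) in another gene. The difference between members was large. Of 51 Mki67 peaks 44 were intergenic, the farthest at -275286 bp from its start, and 6 were in Mki67. Of 42 Gins2 peaks 27 lay in another gene and 7 in Gins2 or its promoter. Pola1 and Brip1 were the opposite case, with 25 of 27 and 23 of 28 peaks in the gene itself. For Cenpf, 18 of 49 peaks were in the gene.

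**Figure D5:**
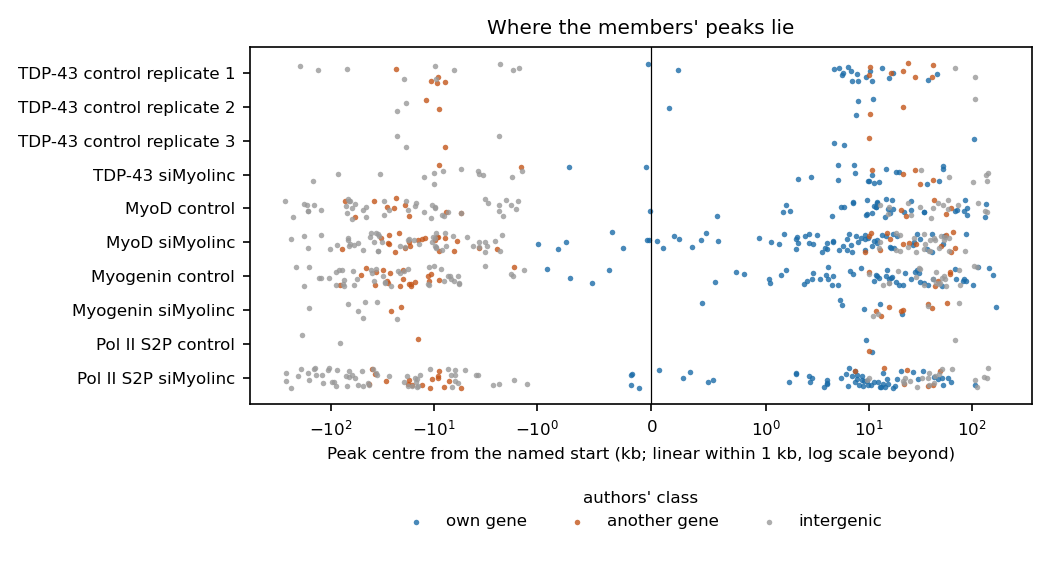
Distance of each member peak from the named start, in kb (linear within 1 kb and logarithmic beyond, negative upstream), by list, coloured by whether the authors' class was in the member itself, in another gene or intergenic; vertical scatter is for display. Of all 745 points 5.37% lie within 1 kb and 65.2% beyond 10 kb, with list medians from 8.92 to 22.6 kb.

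Inside genes, 64 member peaks were exonic, and of the 10 lists TDP-43 control replicate 1 had the largest exonic share of member peaks. The exonic and intronic shares count any gene, the member or another. Exonic peaks in the member and in another gene numbered 7 and 5 in TDP-43 control replicate 1 and 12 and 4 in MyoD siMyolinc. They numbered 10 and 6 in Pol II S2P siMyolinc and 5 and 2 in Myogenin control. In that list 12 of 44 member peaks were exonic, or 27.3% (exact binomial interval up to 42.8), where 18.8% of all its peaks were. In TDP-43 siMyolinc 4 of 46 were exonic, or 8.70% (2.42 to 20.8) where 6.93% were. In control replicates 2 and 3 it was 1 of 11 (9.09%) and 1 of 8 (12.5%), where 24.1% and 25.6% of all peaks were exonic. The members' intervals of control replicate 1 and siMyolinc overlapped. Replicates 2 and 3 rest on 1 exonic peak each (intervals 0.230 to 41.3 and 0.316 to 52.7). Among all peaks the exonic share was higher in each TDP-43 control replicate than in TDP-43 siMyolinc. In every TDP-43 list the members' exonic interval contained the share of all peaks. It lay above that share in MyoD siMyolinc, with 8.99% (5.23 to 14.2) against 3.68%. The same held in Pol II S2P siMyolinc, with 9.94% (5.79 to 15.6) against 3.76%, and in Myogenin control, with 4.70% (1.91 to 9.44) against 1.84%. In the remaining lists it contained that share, and none of this was tested. The best-ranked member peak of control replicate 1 lay in exon 8 of Mcm3, with 22 tags and rank 217 of 29703. The next was in exon 11 of Cenpe, with 20 tags and rank 382. The intronic share of member peaks was 29.5%, 36.4% and 25.0% in TDP-43 control replicates 1 to 3 and 39.1% in TDP-43 siMyolinc. Of all peaks in these lists, 32.4%, 28.1%, 27.4% and 40.2% were intronic. Among members it was 39.8% and 36.5% in MyoD control and siMyolinc, 43.6% and 50.0% in Myogenin, and 28.6% and 31.1% in Pol II S2P. Among all peaks it was 40.2% and 40.8%, 38.1% and 38.9%, and 28.9% and 41.6%. For the intronic share, only the members' interval of Pol II S2P siMyolinc (24.0 to 38.8) left out the share of its list, which was not tested.

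TDP-43 peaks were followed across the 3 control replicates, where 49.3%, 26.8% and 22.3% of protein-coding genes had a peak. Recurrence by gene was not counted for protein-coding genes at large, so the numbers here describe the members alone. A peak in any control replicate was found for 30 members, in at least 2 replicates for 11 and in all 3 for Gins2 and Kif23. The overlapping peaks formed 13 sites, none of which held all 3 replicates. At Mcm3 the site was exon 8, with 22 tags in replicate 1 and 7 in replicate 2. At Mcm2 it was exon 4, with 10 tags in replicate 1 and 7 in replicate 3. At Rrm2 it was intron 8, with 13 tags in replicate 1 and 5 in replicate 3. Ccne1, the cyclin of S phase entry, had 2 intergenic sites at -18571 and -22896 bp in replicate 2, each with peaks of 7 to 9 tags in replicates 2 and 3 and none in replicate 1. Gins2 had 3 sites, one at its own transcript end and 2 inside the neighbouring gene Gse1. The Plk1 site, at chr7:122169305-122169673, was classed by the authors as the end of the neighbouring Ern2 transcript. It lay inside the reference span of Plk1 itself, chr7:122159435-122169884, and also held peaks of MyoD siMyolinc and Pol II S2P control. The Kif23 site lay in the 3′ UTR of Paqr5, and the Cenpf and Cdc25c sites were intergenic and in repeats. For Pola1, replicate 1 had the promoter peak and replicate 3 a separate peak of 6 tags in intron 26. Of the replicate 2 member peaks 54.5% (23.4 to 83.3) were overlapped by replicate 1, and 37.6% of all replicate 2 peaks were. For replicate 3 the values were 62.5% (24.5 to 91.5) and 39.8%.

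Sites found with the same antibody in both conditions were rare. There were 8, of which 5 were TDP-43 sites and 3 were MyoD sites, and there were none for Myogenin or Pol II S2P. For Myogenin siMyolinc this was 0 of 28 member peaks (exact interval up to 12.3%) where 1.99% of all peaks were overlapped by control, and for Pol II S2P control 0 of 7 (up to 41.0%) where 10.5% were overlapped by siMyolinc, so no difference was detectable. TDP-43 peaks overlapped at Ccnb1 (10 tags in control replicate 1 and 7 in siMyolinc, centred at -1690 and -1753 bp), in intron 2 of Mybl2, the gene of B-Myb (7 and 10 tags), and at 2 sites named for Gins1 in the neighbouring gene Ninl. The fifth was the site named for Gins2 in intron 5 of Gse1, at chr8:120567176-120567676. It held 11 tags in TDP-43 control replicate 1, 6 in replicate 2 and 7 in TDP-43 siMyolinc, and was extended by peaks of 13 tags in Pol II S2P siMyolinc and 16 in MyoD siMyolinc. It was the one site found in 5 lists. MyoD peaks overlapped near E2f7 (6 tags in control and 33 in siMyolinc), at Cenpa in the 3′ UTR of Slc35f6 (12 and 32 tags) and upstream of Gins2 (7 and 16 tags). The median peak held 8 tags in the MyoD control list and 24 in MyoD siMyolinc, so these tags are not comparable between the lists. Of the MyoD control member peaks 2.65% (0.551 to 7.56) were overlapped by MyoD siMyolinc, and 1.78% of all control peaks were. Of the TDP-43 siMyolinc member peaks 10.9% (3.62 to 23.6) were overlapped by control replicate 1, and 6.99% of all were. The members' peaks merged into 679 sites, and 51 of them (7.51%) were in 2 or more lists.

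Some members had peaks in one condition alone, and the direction was that of protein-coding genes at large. MyoD had peaks in both conditions at 34 members, or 64.2% against 58.4% of protein-coding genes, and in siMyolinc alone at 14, or 26.4% against 17.2%. It had peaks in control alone at Pold1, the catalytic subunit of polymerase delta, where 6.50% of protein-coding genes did, and in neither at Ccnb1, Foxm1, Mcm7 and Rfc4. Those with MyoD peaks in siMyolinc alone included Ccna2, Ccnb2, Cdk2, Cdc25a, Cdc25c and the mitotic regulators Aurka, Bub1, Bub1b, Cdc20 and Birc5. Myogenin had peaks in both conditions at 14 members (26.4% against 35.9%), in control alone at 26 (49.1% against 37.3%), and in siMyolinc alone at Top2a and Kif23 (3.77% against 3.85%). The Top2a peak, in exon 5 of this topoisomerase gene, held 220 tags where the list's median was 137. Pol II S2P had peaks in both conditions at 6 members (11.3% against 25.3%), in siMyolinc alone at 38 (71.7% against 51.7%) and in control alone at none, against 1.48%. For TDP-43, 17 members had a peak in at least 1 control replicate and in siMyolinc (32.1% against 34.4%), and 13 in control alone (24.5% against 20.9%). The 9 with one in siMyolinc alone (17.0% against 10.7%) were Ccna2, Ccne2, Cdc25a, E2f2, Foxm1, Mcm4, Tyms, Bub1 and Nbn. At Foxm1 the TDP-43 siMyolinc peak of 6 tags in exon 2 overlapped a Pol II S2P siMyolinc peak of 15 tags, and these were the only 2 peaks named for the gene. These counts move with the lists' lengths, and whether list length accounts for them was not tested.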

How the data were processed

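Chromatin from C2C12 cells was immunoprecipitated with 4 antibodies, and the deposited files are 10 peak lists that the authors made with HOMER on mm10, per the submitters' processing notes. IgG served as background. The read aligner, the HOMER version and the settings of the peak calls are not given in these sources. For every peak the lists hold, per the file headers, a peak score, a focus ratio (a fraction from 0 to 1), a class, the closest gene and how far its start lies. The scores are the authors' own values and were used only inside a list.

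All scores of a list were whole multiples of 1 step within a tolerance of 0.1 score units, and score divided by step is given as tags. Steps were read correctly in simulated lists. Python 3.11.15, pandas 2.3.3, NumPy 2.4.6, SciPy 1.17.1 and matplotlib 3.10.9 were used. Peaks named for the 53 members were selected by gene symbol, all of which matched the RefSeq table (GRCm38.p6, the build named mm10). Whether a class belonged to the member was read from the transcript behind it. Sites are chains of peaks overlapping by at least 1 bp. Intervals are exact Poisson (tags), exact binomial (shares) or Newcombe (differences of shares) intervals at 95%, and cover only counting error, as reads copied by PCR are not separate molecules. The TDP-43 libraries were compared, 3 against 1, by an exact two-sided permutation test. Each p-value is the share of relabellings of these libraries with a mean difference at least as large. It measures no spread, as siMyolinc has 1 library, and differences between these libraries may be technical.

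Genes were named by rule: every member with a promoter peak, the 5 with most peaks, those with a TDP-43 peak in 2 or more control lists, those with overlapping control and siMyolinc peaks of the same antibody, and those with no peak. Values of other members were given by group or chosen after they were seen. Members and gene lists (72 other cell cycle genes, 32 cell type markers, 1 of which was not matched) were chosen with earlier results of these data known. Alternatives were a score threshold, lists of equal length, leaving out repeats, other promoter distances, reference gene spans and leaving out each TDP-43 control. The position of 1 recurring TDP-43 site is not reported here.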

Additional observations from a re-analysis of the deposited data

How the results depend on the processing

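No paired analysis was possible because only the TDP-43 control libraries carry replicate numbers and every other group has 1 library. Leaving out each TDP-43 control replicate in turn gave differences (siMyolinc minus control) of 0.0582 to 0.0832 percentage points in the members' share of peaks and of 1.5 to 2 in members with a promoter peak, all positive. Under the other settings the TDP-43 differences were positive too. The share difference, 0.0675 points as reported, was 0.0332 inside the reference spans (exact permutation p = 0.5). The difference in members, 1.67 as reported, was 1 within 1000 bp of the start (exact permutation p = 0.75) and 6.33 within 5000 bp. For MyoD the share difference was 0.0490 points in lists of equal length, and the difference in members with a promoter peak, 7 as reported, was 1 when peaks under the median score were left out, 1 in lists of equal length, 13 within 1000 bp of the start and 21 within 5000 bp. For Myogenin the share difference turned to -0.00807 points when peaks inside the members' reference spans were counted, and the difference in members, -4 as reported, was -2 above the median score, 0 in lists of equal length and -19 within 5000 bp. For Pol II S2P the share difference, 0.0734 points as reported, was 0.115 without repeats, 0.0181 inside the reference spans and 0.0123 in lists of equal length. The Pol II S2P difference in members, 5 as reported, was 3 above the median score, 0 in lists of equal length and 22 within 5000 bp. The cause of these shifts was not tested, except that equal lists hold fewer peaks and wider windows more by construction. Member peaks of 4 to 22 tags limit every value from the TDP-43, MyoD control and Pol II S2P control lists.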
